A study of Arabidopsis thaliana with 4 samples.

Results

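The genes described here carry storage oil from the seed's oil bodies through the peroxisome to sugar. They were chosen by function, as the rows of the count table for a fixed list of gene identifiers. All 34 identifiers were found among the 37885 in the table. They cover 6 oil body coat genes (oleosins and caleosins), the oil body factor gene PUX10, 2 lipases, 3 genes of fatty acid import and activation, 5 acyl-CoA oxidases, 2 multifunctional proteins, 3 thiolases, 7 genes of the glyoxylate cycle with its aconitase, the gluconeogenesis gene PCK1 and 4 peroxins. The 4 libraries, numbered 1 to 4 as biological replicates, hold poly(A) RNA of whole Arabidopsis thaliana seedlings of the line prt6-1hyt1-1. Seedlings were harvested untreated at an age of 7 days and had grown in continuous light on half-strength medium that held no sucrose. The labels do not say whether the replicates came from separate sowings, so tests between them measure only the spread between these samples. In the count table the columns are headed hup40 in place of hyt1, and no source used here says which gene either name stands for. Libraries of Col-0, prt6-1 and prt6-1erfvII, which the design sets beside this line, were not analysed here. With 1 group, the data answer how abundant each step's transcripts were and how far they differed between replicate samples.

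Arabidopsis seeds store oil as triacylglycerol in oil bodies, which oleosins and caleosins coat. After germination, lipases release fatty acids, these enter the peroxisome, beta-oxidation cuts them into acetyl-CoA, and the glyoxylate cycle and gluconeogenesis turn that into sugar until the seedling can photosynthesise. PRT6 marks proteins for degradation by their amino-terminal residue, as part of plant oxygen sensing, and prt6 seedlings are known for oil bodies that persist after germination.

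The libraries held 24743656 to 26155431 counts. Markers of green tissue and root were present in all 4, with summed levels of 49037 to 52655 CPM (counts scaled to a common library size) for 6 green tissue genes and 4854 to 5858 CPM for 6 root genes. PYK10 made up most of the root sum, at a mean of 5039 CPM, and PLT2 was the lowest root marker at 0.867 CPM. The 12 seed and late embryo markers summed to 8.12, 160, 5.27 and 5.77 CPM in replicates 1 to 4. Replicate 2 stood apart in these, and 11 of the 12 markers were highest there. No marker of the list was at 0 in replicate 2, while 3, 6 and 8 of them were at 0 in replicates 1, 3 and 4. Calls and tallies that move with replicate 2 are also given without it.

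Sequences upstream of the coat genes set them apart from the other members. The RY element, bound by the seed regulators of the ABI3 family, was searched as CATGCA on both strands in the 250 bases before the annotated start of each gene (RefSeq, TAIR10.1). It was present upstream of 5 of 5 coat genes reported and of 0 of the 28 other members, and upstream of 8.41% of the 27561 protein-coding genes with such a window. The G-box CACGTG, which reads the same on both strands and contains the abscisic acid response core ACGTG, was found for 2 coat genes and 2 other members, and for 6.46% of all windows. The core ACGTG was upstream of 3 coat genes, 6 other members and 22.9% of all windows. The windows of OLEO1, OLEO3 and OLEO4 are shown because all hold RY elements while OLEO1 alone among them was far higher in replicate 2, with capitals for RY elements and G-boxes.
OLEO1 (chr4:12900180-12900429, plus strand): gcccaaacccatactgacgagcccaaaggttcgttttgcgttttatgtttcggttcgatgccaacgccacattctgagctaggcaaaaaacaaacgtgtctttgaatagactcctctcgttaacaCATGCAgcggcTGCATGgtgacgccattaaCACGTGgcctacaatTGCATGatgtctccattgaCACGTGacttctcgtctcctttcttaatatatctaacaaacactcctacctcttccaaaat
OLEO3 (chr5:20819818-20820067, plus strand): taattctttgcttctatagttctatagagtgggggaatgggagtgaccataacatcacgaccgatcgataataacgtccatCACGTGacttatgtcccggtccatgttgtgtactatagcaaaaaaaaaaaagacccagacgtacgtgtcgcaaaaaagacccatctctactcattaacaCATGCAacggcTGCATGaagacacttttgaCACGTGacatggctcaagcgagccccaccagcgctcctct
OLEO4 (chr3:10242994-10243243, plus strand): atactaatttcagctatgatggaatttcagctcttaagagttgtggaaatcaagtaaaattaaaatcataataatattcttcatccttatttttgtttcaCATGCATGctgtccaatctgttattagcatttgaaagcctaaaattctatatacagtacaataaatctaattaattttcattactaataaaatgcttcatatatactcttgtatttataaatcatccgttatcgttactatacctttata

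The windows of OLEO1 and OLEO3 resemble each other. Both held a pair of RY elements in opposite orientation, ending 120 and 109 bases before the start in OLEO1 and 65 and 54 bases in OLEO3, followed by a G-box. OLEO1 had 1 more RY element, at 75 bases. In OLEO4 a pair at 145 and 143 bases overlapped. The caleosin genes had 1 RY element each, 20 bases before the start in CLO1 and 29 bases in CLO2. The window of CLO1 overlaps an exon of another gene, as do windows of several members outside the coat. A match of these letters is a description of the sequence and not a measured binding site.

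Coat transcripts were low in 3 libraries, and those of 4 of the 6 genes were far higher in replicate 2. OLEO1 (AT4G25140, chromosome 4, 12900430 to 12901577, plus strand), the main oleosin of seed oil bodies, had 2, 123, 3 and 0 counts in replicates 1 to 4. OLEO2 (AT5G40420, chromosome 5, 16173340 to 16174783, minus strand), a second seed oleosin, had 10, 105, 12 and 11 counts. Both genes stood far above the other libraries in replicate 2, without overlap. Their counts differed between libraries by more than counting error (adjusted chi-square p 3.48e-70 and 4.23e-38), and for OLEO2 no longer did so without replicate 2 (adjusted chi-square p 0.948, beside 4.81e-38 at the lowest among the other settings run). OLEO1 was too low to test without replicate 2.

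The caleosin genes, which encode calcium-binding coat proteins, followed the same library. CLO1 (AT4G26740, named ATS1 in the annotation) had 0, 18, 2 and 0 counts, and CLO2 (AT5G55240, named ATPXG2) had 0, 6, 0 and 0 counts. They were too low for the test, which asked for at least 10 expected counts in each library. Relative to the pooled other libraries, the CPM in replicate 2 was 71.9 times as high for OLEO1 (95% interval 30.0 to 226), 9.30 times for OLEO2 (6.24 to 14.2) and 26.3 times for CLO1 (6.30 to 234). For CLO2, with 6 counts against 0, it was at least 5.85-fold higher against a floor of 3 counts over the other libraries, and the lower limit of its interval was 3.44. These exact binomial intervals cover counting error only.

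The other oleosins were not far higher in replicate 2, though OLEO4 had its highest count there. OLEO3 (AT5G51210), whose upstream window resembles that of OLEO1, had 2, 5, 10 and 8 counts, and its ratio in replicate 2 was 0.731 (95% interval 0.214 to 2.01). OLEO4 (AT3G27660) had 28, 54, 33 and 42 counts, with a ratio of 1.53 (1.08 to 2.15) and no call in the test (adjusted chi-square p 0.0637, 0.0352 without replicate 4, and up to 0.362 under the other settings). The interval of OLEO4 lies below those of OLEO1, OLEO2 and CLO1. In CPM, OLEO4 stood at 2.09 in replicate 2 beside 1.36 in the pooled others, and CLO1 at 0.695 beside 0.0264. Summed over the 6 coat genes there were 42, 311, 60 and 61 counts, or 1.68, 12.0, 2.36 and 2.41 CPM. OLEO4 gave the most coat counts in replicates 1, 3 and 4, and OLEO1 and OLEO2 gave the most in replicate 2.

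**Figure D1:**
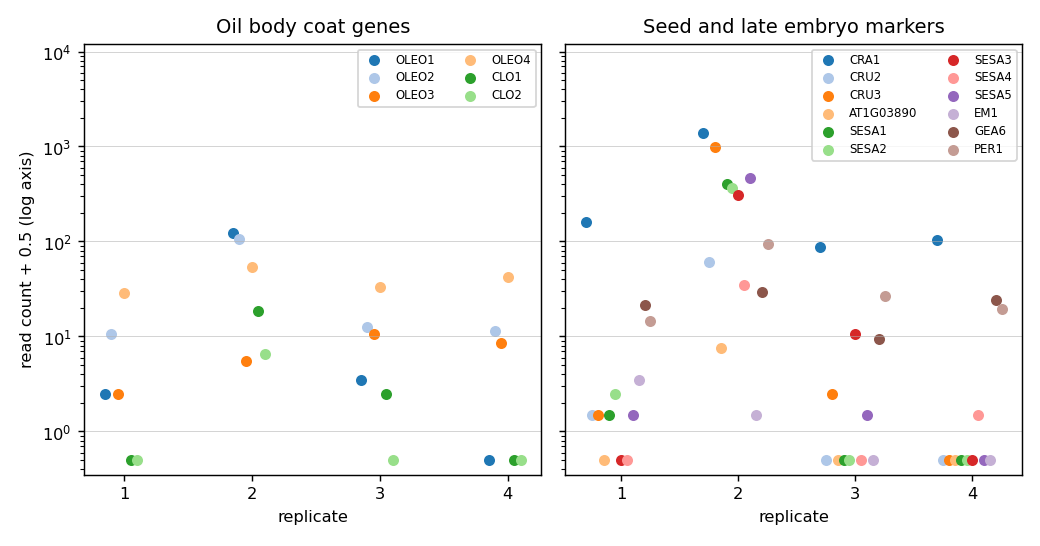
Read count plus 0.5 (log axis) of each of the 6 oil body coat genes (left) and the 12 seed and late embryo markers (right) in replicates 1 to 4, with 1 point for each gene. OLEO1 and OLEO2 reach 123 and 105 counts in replicate 2 and lie at 0 to 12 counts in the others, while OLEO4 lies at 28 to 54 in all 4.

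The storage protein genes among the seed markers were high in the same library. Of the remaining markers, PER1 was also highest there, with 14, 94, 26 and 19 counts (adjusted chi-square p 4.28e-21). GEA6, with 21, 29, 9 and 24 counts, and EM1, with 3, 1, 0 and 0, were not set apart there. CRU3, a cruciferin storage protein gene, had 1, 998, 2 and 0 counts, and CRA1, another cruciferin gene, had 159, 1394, 86 and 102. The ratio in replicate 2 was 973 for CRU3 (95% interval 332 to 4725) and 11.75 for CRA1 (10.4 to 13.25). The markers named were chosen after their values were seen. Whole seedlings were sequenced, so more cells with seed transcripts and more such RNA per cell cannot be told apart, and the part that seed RNA has in the coat result was not tested. OLEO1 and OLEO2 overlap exons of AT4G25150 and AT5G40410 on the opposite strand, which had 96, 56, 72 and 61, and 16, 18, 20 and 21 counts. Neither neighbour was high in replicate 2. No window of 50 bases in a coat transcript was found in another gene's transcript.

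PUX10 and SDP1 lay well above SDP1L in level. Levels per length are given as TPM, the count plus 0.5 divided by exon length and scaled to the same total in each library. PUX10 (AT4G10790), which recruits the CDC48 segregase to pull ubiquitinated oleosins from the oil body, stood at 51.2, 46.5, 44.1 and 44.9 TPM, above 82.1% of the 19940 genes kept by the expression filter. It was highest in replicate 1, and lowest in replicate 3 in TPM but in replicate 4 in CPM. The coat genes were low in each of these libraries. Without replicate 1, PUX10 did not vary beyond counting error (adjusted chi-square p 0.404). The triacylglycerol lipase gene SDP1 (AT5G04040) stood at 17.5, 18.4, 19.1 and 17.6 TPM. Its homologue SDP1L (AT3G57140) stood at 0.341, 0.597, 0.509 and 0.318 TPM, from 16 to 32 counts. SDP1 took 97.65% ± 0.638 of the summed lipase level (SD, n = 4).

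The next step activates fatty acids for beta-oxidation. The acyl-CoA synthetase genes LACS6 (AT3G05970) and LACS7 (AT5G27600) stood at 51.6 ± 1.74 and 25.7 ± 0.424 TPM (SD, n = 4). Neither varied beyond counting error (adjusted chi-square p 0.438 and 0.523). LACS6 exceeded LACS7 by 1.006 ± 0.051 in log2 TPM, with a range of 0.956 to 1.067.

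Enzymes of the peroxisome matrix are imported by short signals, and the members' coding sequences carry them. A type 1 signal was counted where the last 3 codons encode serine or alanine, then lysine or arginine, then leucine or methionine. A type 2 signal was counted where 9 codons among the first 40 encode arginine, then leucine, isoleucine, glutamine or alanine, then any 5 residues, then histidine and leucine or isoleucine. Of the 34 members, 8 had the first and 11 the second, and LACS7 had both. Of 27562 protein-coding genes, 0.432% had the first and 0.185% the second. The members were chosen as genes of the peroxisome, so these shares describe them and test nothing. The coding sequences printed here (RefSeq, TAIR10.1, longest coding sequence of each gene) stand for the kinds found, with the signal codons in capitals and the stop codon last at the end of a gene.
ICL, end of the coding sequence: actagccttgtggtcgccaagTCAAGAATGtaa
MLS, end of the coding sequence: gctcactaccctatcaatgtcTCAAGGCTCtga
ACX1, end of the coding sequence: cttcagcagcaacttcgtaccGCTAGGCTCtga
AIM1, end of the coding sequence: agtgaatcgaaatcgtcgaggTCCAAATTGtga
LACS7, end of the coding sequence: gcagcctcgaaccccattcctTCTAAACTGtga
LACS7, type 2 signal: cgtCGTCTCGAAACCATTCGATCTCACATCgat
LACS6, type 2 signal: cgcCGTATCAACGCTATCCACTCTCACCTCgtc
KAT2, type 2 signal: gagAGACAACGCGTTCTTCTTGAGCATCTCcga
CSY3, type 2 signal: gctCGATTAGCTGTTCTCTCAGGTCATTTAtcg
PMDH2, type 2 signal: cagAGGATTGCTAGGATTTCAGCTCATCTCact

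Both kinds of signal occurred within 1 step of the pathway. Among the acyl-CoA oxidases, ACX1, ACX4 and ACX5 had type 1 and ACX2 and ACX3 type 2. The multifunctional proteins AIM1 and MFP2 had type 1, and the thiolases KAT1, KAT2 and KAT5 type 2. In the glyoxylate cycle, ICL and MLS had type 1, and the citrate synthases CSY2 and CSY3 and the malate dehydrogenases PMDH1 and PMDH2 type 2. ACO1 and PCK1, enzymes of the cytosol, had neither. The 8 type 1 members summed to 518 ± 38.4 TPM and the 11 type 2 members to 1259 ± 33.1 TPM (SD, n = 4), with LACS7 in both sums. PMDH2 alone accounted for 712 ± 36.9 TPM of the second.

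Every step of beta-oxidation had at least 1 abundant transcript. The acyl-CoA oxidases, which differ in the chain length they prefer, were led by the short-chain enzyme gene ACX4 (AT3G51840) at 102 ± 2.17 TPM (SD, n = 4). ACX1 (AT4G16760), for medium to long chains, followed at 66.9 ± 2.08 TPM. The long-chain enzyme gene ACX2 (AT5G65110) at 46.7 ± 2.39 TPM and the medium-chain enzyme gene ACX3 (AT1G06290) at 44.4 ± 0.992 TPM overlapped in their ranges. ACX5 (AT2G35690), the close copy of ACX1, was lowest at 11.05 ± 0.624 TPM, at a log2 TPM ratio of ACX1 to ACX5 of 2.60 ± 0.10. ACX3 shares 14.6% of its windows of 50 bases with another transcript. Its closest copy is ACX6, which had 20, 13, 6 and 9 counts. How reads that match both were counted is not given, so the level of ACX3 is uncertain. ACX2 alone among the oxidases varied beyond counting error, with 44.7, 48.8, 48.9 and 44.7 TPM (adjusted chi-square p 2.40e-05).

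The multifunctional protein genes, whose products hydrate and then oxidise the chain, were near each other in level. AIM1 (AT4G29010) stood at 86.6, 85.5, 77.5 and 82.1 TPM and MFP2 (AT3G06860) at 56.5, 63.6, 55.9 and 54.8 TPM. AIM1 lay above MFP2 in 4 of 4 libraries, by 0.52 ± 0.09 in log2 TPM. Among the thiolases, which release acetyl-CoA, KAT2 (AT2G33150, named PKT3) took 71.7% ± 1.2 of the summed level (SD, n = 4). KAT2 stood at 168, 183, 171 and 171 TPM, KAT5 (AT5G48880) at 42.1 ± 2.46 TPM and KAT1 (AT1G04710, named PKT4) at 26.2 ± 0.815 TPM. The log2 TPM ratio of KAT2 to KAT1 had the smallest SD of the 17 pairs compared, at 2.73 ± 0.02. KAT2 and KAT5 went different ways in replicate 2, where KAT2 was highest and KAT5 lowest.

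The enzymes particular to the glyoxylate cycle were far apart in level. ICL (AT3G21720, chromosome 3, 7652487 to 7656053, minus strand), isocitrate lyase, stood at 146, 203, 189 and 125 TPM. MLS (AT5G03860, chromosome 5, 1032099 to 1034973, minus strand), malate synthase, stood at 5.19, 5.87, 5.83 and 6.25 TPM, from 169 to 206 counts. ICL was high in replicates 2 and 3 and low in 1 and 4, and MLS did not share that order, since it was highest in replicate 4. ICL lay above 95.2% of the genes kept and MLS above 27.9%. The log2 TPM ratio of ICL to MLS was 4.82 ± 0.35, between 4.33 and 5.11, which is 28.2-fold on average. Neither gene had a hit to another transcript in the similarity search, and neither overlaps an exon of another gene.

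The other genes of the cycle have copies or roles outside oil breakdown. PMDH2 (AT5G09660), a peroxisomal malate dehydrogenase that also serves photorespiration, was the most abundant member at 686, 693, 766 and 701 TPM, and replicate 3 was the highest. It has several annotated transcripts, and its mean was 828 TPM with the length of the longest of them. PMDH1 (AT2G22780) stood at 72.2 ± 4.74 TPM, a log2 TPM ratio to PMDH2 of -3.30 ± 0.16. The cytosolic aconitase gene ACO1 (AT4G35830) stood at 177 ± 6.19 TPM. The citrate synthase genes CSY2 (AT3G58750) and CSY3 (AT2G42790) stood at 30.7 ± 0.852 and 34.5 ± 2.38 TPM. Their log2 TPM ratio was -0.17 ± 0.12, with 1 sign in 4 of 4 libraries, and turned to 0.215 without length normalisation, so their order depends on that step. PCK1 (AT4G37870), the phosphoenolpyruvate carboxykinase that starts gluconeogenesis, stood at 188, 194, 181 and 177 TPM, above 95.8% of the genes kept.

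**Figure D2:**
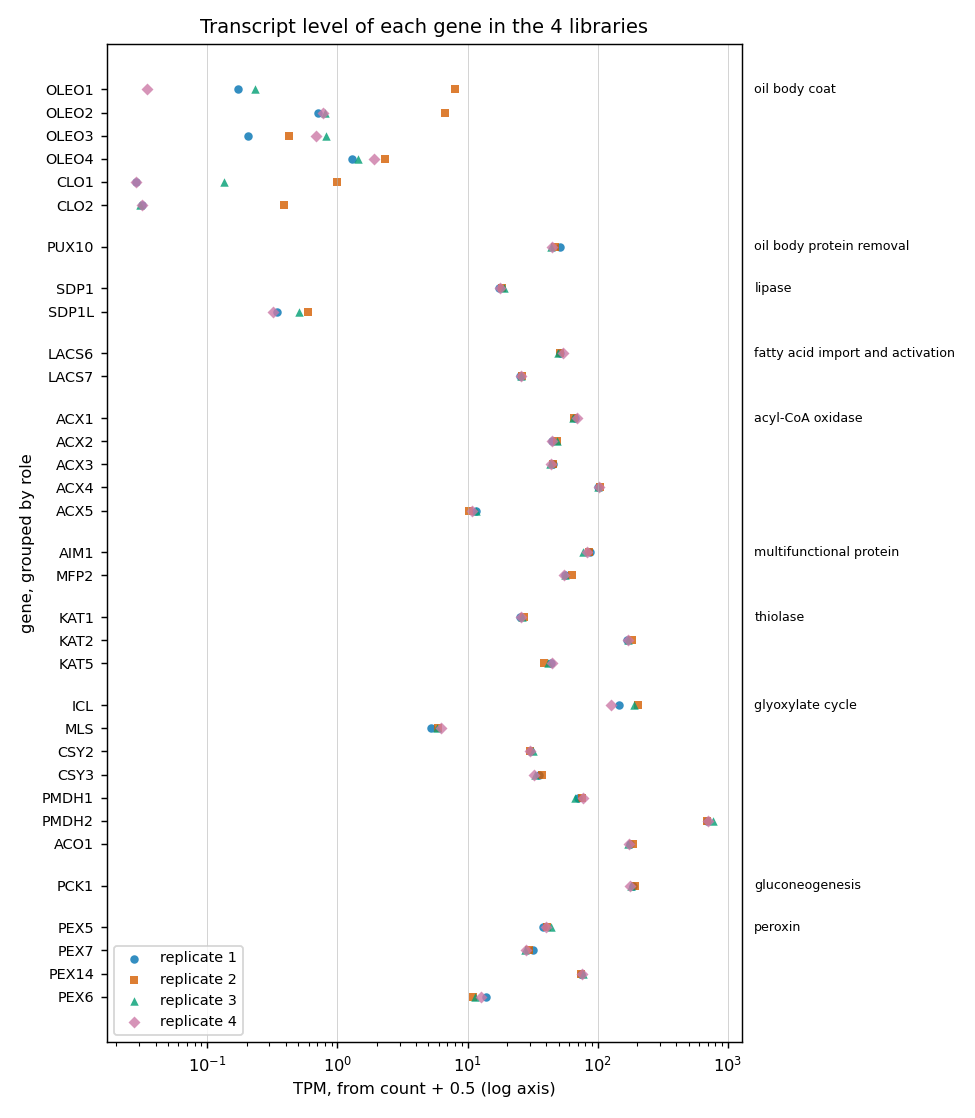
Level of 33 of the 34 genes in TPM (log axis, from the count plus 0.5), with 1 point for each of the 4 libraries and genes grouped by role. The coat genes and SDP1L lie lowest, PMDH2 lies highest at 686 to 766 TPM, and for most other genes the 4 points nearly coincide.

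Peroxins import the enzymes. PEX5 (AT5G56290), the receptor for type 1 signals, stood at 38.1, 40.6, 43.7 and 39.9 TPM, and PEX7 (AT1G29260), the receptor for type 2 signals, at 31.6, 29.7, 27.4 and 27.9 TPM. PEX5 lay above PEX7 in 4 of 4 libraries, by 0.48 ± 0.17 in log2 TPM, and the gap was widest in replicate 3. PEX14 (AT5G62810), the docking protein of the membrane, was the highest of the 4 at 75.2 ± 1.39 TPM. PEX6 (AT1G03000), an ATPase that recycles PEX5, was the lowest at 12.2 ± 1.21 TPM. The log2 TPM ratio of PEX14 to PEX6 was 2.63 ± 0.15.

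Ratios within a library compare genes without the library's depth, and 17 pairs were set side by side. In 14 pairs the ratio had 1 sign in all 4 libraries. An exact two-sided sign-flip test over 4 libraries has 16 sign patterns, so no pair can pass 0.05. Each of these 14 pairs had the smallest p the test allows, which was 0.152 after Benjamini-Hochberg adjustment over the 17 pairs. SDP1 to SDP1L was the widest, at 5.41 ± 0.40 (SD, n = 4), or 42.6-fold. The 3 pairs with both signs were OLEO1 to OLEO2 at -2.02 ± 1.95, OLEO1 to OLEO4 at -2.39 ± 3.13, and CLO1 to CLO2 at 0.80 ± 1.16. OLEO1 lay above OLEO2 and OLEO4 in replicate 2 and below both in the other libraries. Single libraries set the size of these means. OLEO1 to OLEO2 was -2.78 without replicate 2 and -1.20 without replicate 4, and OLEO1 to OLEO4 was -3.78 and -1.25. CLO1 to CLO2, which rests on the added 0.5 where both counts are 0, was 0.62 without replicate 2 and 0.35 without replicate 3.

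**Figure D3:**
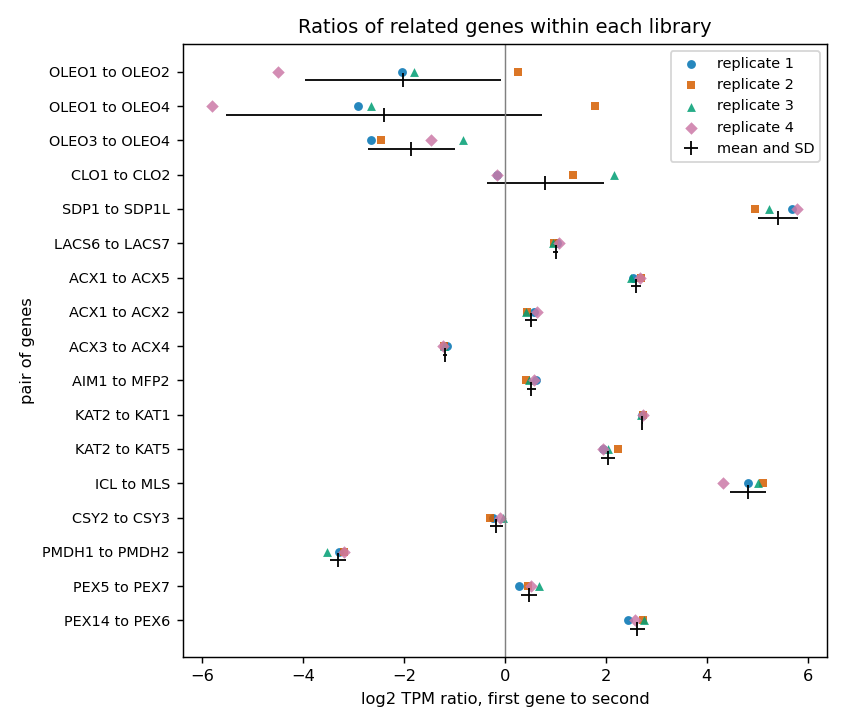
Log2 TPM ratio of the first gene to the second for the 17 pairs, with 1 point for each library and the mean with its SD as a bar below the points. The pairs of OLEO1 spread across 0, with replicate 2 on the right, while the enzyme pairs keep to 1 side.

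Most members stood above the middle of the transcriptome. Of the 34 genes, 24 lay above the median gene kept and 6 were among the top 10%. The median log2 TPM over all 34 was 5.22. It was 5.43 ± 0.02 (SD, n = 4) over the 30 members that passed the expression filter, beside 3.76 over all genes kept. The 4 that did not pass were OLEO1, OLEO3, CLO1 and CLO2. Together the 34 genes took 0.351% ± 0.0100 of all counts.

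Counts of 18 of the 31 members tested varied between libraries by more than counting error, beside 42.8% of all 20687 genes tested. The call comes more easily at high counts. Among members with a mean of 1000 to 5000 counts, 10 of 17 were called, beside 61.3% of all genes in that range, so this share is near the background. Without replicate 2, 11 of 30 members were called, beside 35.2% of all genes. Without replicates 1, 3 and 4 in turn, 14, 16 and 19 of 31 were called, beside 26.6%, 30.9% and 35.7%.

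Which members were called depended on single libraries for several of them. ACX2, AIM1, KAT2, ICL, PMDH1, PMDH2 and PCK1 were called under every scaling, expected-count minimum and omission of a library that was run. The call was narrow for KAT2 without replicate 2 (adjusted chi-square p 0.0496) and for AIM1 without replicate 3 (0.0386). Besides OLEO2, the call ended without replicate 2 for MFP2 (adjusted chi-square p 0.244), KAT5 (0.810), CSY3 (0.256), ACO1 (0.571) and PEX6 (0.0605). It ended without replicate 1 for PUX10 (0.404), SDP1 (0.0785) and PEX6 (0.302), and without replicate 3 for SDP1 (0.294) and PEX5 (0.109). Among the genes named here that lost the call, OLEO2 aside, the lowest p under any alternative lay between 2.99e-09 for MFP2 and 0.0187 for SDP1.
The spread beyond counting error was also near the background. The biological coefficient of variation (BCV) was above the fitted trend for 11 of 30 members, beside 34.2% of all genes kept. Without replicate 2 it was above for 6, beside 33.5%. The median BCV less the trend was -0.226 percentage points for the members and -0.365 for all genes kept.

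ICL stood out from this pattern. Its BCV was 12.1%, beside 5.62% for the trend, an excess larger than that of 99.2% of genes kept. It had 5133, 7579, 7000 and 4462 counts (adjusted chi-square p 1.86e-211), and its highest CPM was 1.66 times its lowest. Over the 28 members outside the coat, that ratio had a median of 1.13. It exceeded 1.2 for 5 of them, among them SDP1L at 1.95 (from its low counts), ICL, PEX6 and MLS. For MLS (adjusted chi-square p 0.395) and SDP1L (0.117) counting error was not exceeded. Only OLEO2 had a larger excess of BCV among the members, at 56.0% beside a trend of 18.3%.

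**Figure D4:**
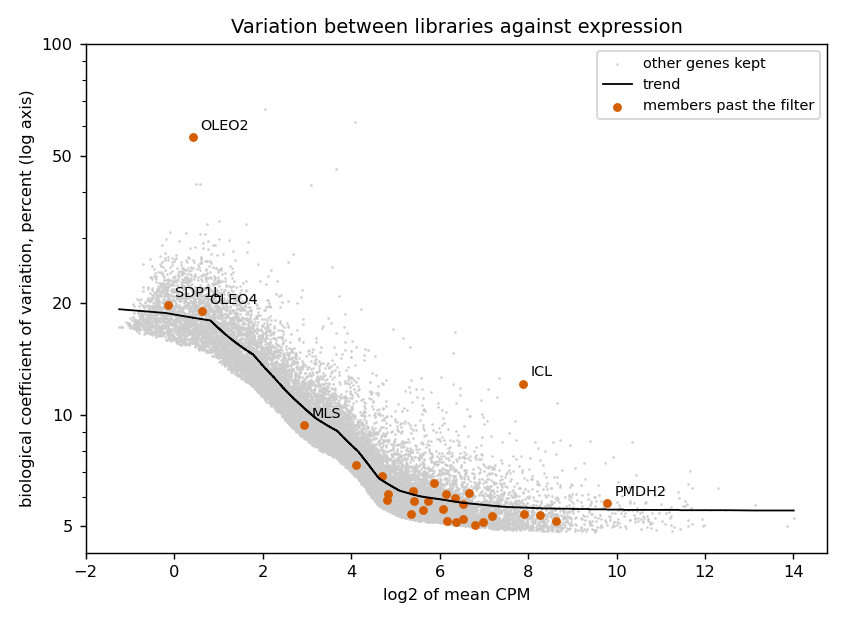
BCV in percent (log axis) against the log2 of the mean CPM for all genes kept (grey), the 30 members past the filter (orange) and the trend (line). OLEO2 at 56.0% and ICL at 12.1% lie far above the line, and the other members lie near it.

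The members also shared small shifts between libraries. Of the 30 members past the filter, 15 had their highest CPM in replicate 2, beside 22.8% of all genes kept, 7 in replicate 3 (beside 26.4%), 4 in replicate 1 (beside 28.8%) and 4 in replicate 4 (beside 22%). The lowest CPM lay in replicate 1 for 14 (beside 28.6%), in replicate 4 for 11 (beside 22.8%), in replicate 2 for 3 (beside 22.8%) and in replicate 3 for 2 (beside 25.8%). Without the coat genes, 13 of 28 were highest in replicate 2, and the median deviations from the gene's mean were -0.04, 0.04, 0.01 and -0.04 in log2 CPM. For all genes kept, these medians lay within 0.0016 of 0. The median shift was thus small, and ICL and SDP1L deviated most. The seed markers were high in replicate 2 as well, and their part in the shift was not tested. Over replicates 1, 3 and 4 alone, a tally added after the data were seen, 14 of the 28 were highest in replicate 3 (beside 34.1% of all genes kept), 9 in replicate 1 (beside 34.9%) and 5 in replicate 4 (beside 31%). The lowest then lay in replicate 1 for 12 (beside 34.9%), in replicate 4 for 12 (beside 31.6%) and in replicate 3 for 4 (beside 33.5%).

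**Figure D5:**
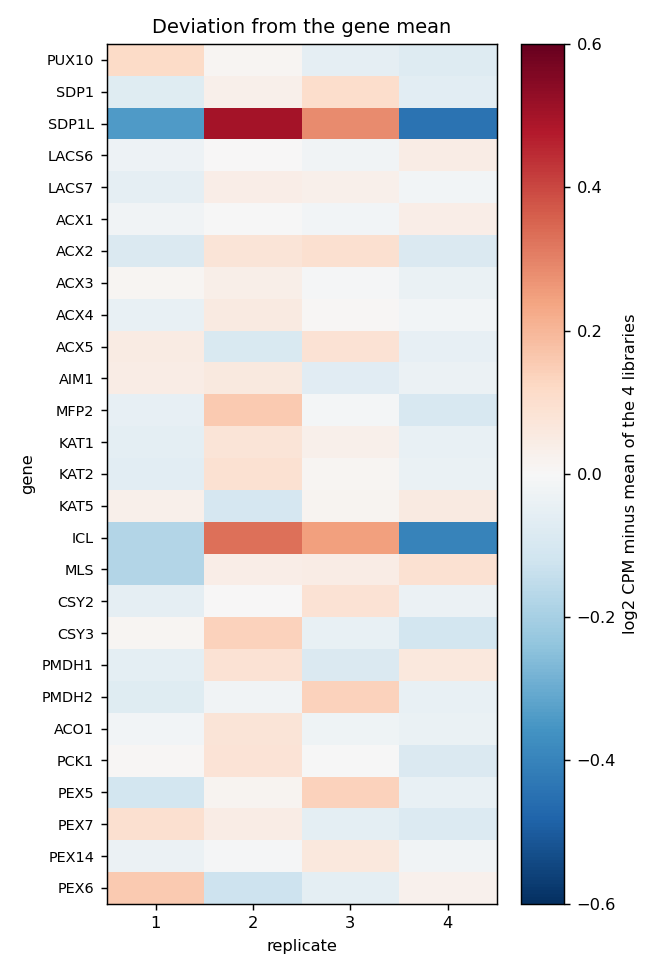
Deviation of 27 of the 28 members outside the coat from its own mean, in log2 CPM, for replicates 1 to 4 (red above, blue below). ICL and SDP1L show the strongest colours, red in replicates 2 and 3 and blue in 1 and 4, and most other genes are pale.

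Other genes of the pathway were described from lists chosen by function, 62 genes in all. Of these, 53 could be tested and 23 were called, beside 42.8% of all genes, and 9 were called without replicate 1, beside 26.6%. The counts for single lists stand beside the same 42.8%, which runs from 29.9% of genes with a mean of 10 to 100 counts to 89.3% of those with 5000 or more. All 5 genes of glycerol use and gluconeogenesis were called, and their summed level was lowest in replicate 1, at 314 CPM beside 347 to 352 CPM. SDP6 (AT3G10370), named after its values were seen, went the other way. It was highest in replicate 1 at 33.1 CPM, beside 26.2 to 31.2 CPM, and the other genes of this list were lowest there. The glycerol kinase gene NHO1 (AT1G80460) led them at 68.0 ± 3.58 TPM, and PCK2 (AT5G65690), the copy of PCK1, was lowest at 1.69 ± 0.547 TPM, with 43, 103, 71 and 89 counts. Of 9 auxiliary beta-oxidation genes, all tested, 4 were called, from HCD1 (AT4G14440) at 84.9 TPM to ACX6 (AT1G06310) at 0.327 TPM.

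Catalases remove the hydrogen peroxide that the oxidases make. CAT2 (AT4G35090), which also serves photorespiration, stood at 730 ± 96.2 TPM, a level near that of PMDH2. It led the list of catalases and peroxisomal carriers, of which 5 of 6 were called, and the adenine nucleotide carrier gene PNC2 (AT5G27520) was lowest at 13.8 TPM. Of 21 genes listed as further peroxins and peroxisomal proteases, 3 were called, from PEX11D (AT2G45740), a gene of peroxisome division, at 134 ± 6.73 TPM to PEX10 (AT2G26350) at 7.25 TPM. The 21 include AT4G18197, which the count table names PUP7 and which was not called. Among the remaining copies of aconitase and citrate synthase, the mitochondrial aconitase gene ACO3 (AT2G05710) was highest at 137 TPM, and 2 of 2 tested were called. CSY1 (AT3G58740), the remaining peroxisomal citrate synthase gene, had 0 counts in all libraries.

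Among 12 further lipid droplet genes, 1 of 7 tested was called, and 3 of the 12 had no count. The highest was the droplet protein gene AT3G05500 at 38.0 ± 1.38 TPM, and the steroleosin gene HSD1 (AT5G50600) was among those at 0. Close copies were searched for the members only. Whether reads shared with a copy bear on these counts of 0 was not tested. The summed level of this list was 105 to 109 CPM in all 4 libraries, so replicate 2 did not stand out in the sum. That sum rests on the higher genes, such as AT3G05500 at a mean of 38.7 CPM. A rise in genes with few counts would not show in it. Those genes, named after their values were seen, are given by their counts in replicates 1 to 4. AT3G01570 had 22, 20, 23 and 13, RD20 had 12, 10, 20 and 22, and AT2G47780 had 12, 9, 12 and 17. AT2G25890 had 1, 13, 10 and 12, and AT3G18570 had 1, 0, 0 and 2. None of them stood far above all other libraries in replicate 2. Of 6 seed gene regulators, all 3 tested were called. WRI1 (AT3G54320), a regulator of oil synthesis, was the highest at 4.72 TPM, and LEC1 (AT1G21970) had 1 count, in replicate 4. The summed level of these regulators was 10.8, 9.50, 9.79 and 7.31 CPM, without a peak in replicate 2. Most of this sum was WRI1, at a mean of 6.12 CPM, so the sum says little of the lower genes. The remaining regulators are named after their values were seen. ABI3 (AT3G24650) had 15, 33, 34 and 15 counts, and ABI5 (AT2G36270) had 75, 49, 46 and 48, highest in replicate 1. LEC2 (AT1G28300) had 2, 5, 2 and 0 counts, and FUS3 (AT3G26790) had 4, 0, 0 and 0.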

How the data were processed

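Poly(A) RNA from 4 seedling samples of 1 group was sequenced. The authors deposited raw read counts per gene, made with HISAT2 2.1.0 and featureCounts 1.6.0 on TAIR10, per the submitters' processing notes. The library kit keeps strand, per the labels' protocols. The sources name no strand setting for counting, no annotation release and no rule for ambiguous reads, which affect genes that overlap or have close copies. The title of replicate 4 exchanges characters of the genotype, read as a misprint, and columns were matched by the prt6-1 name and replicate number.

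Libraries held 24743656 to 26155431 counts. Of 37885 identifiers, 37882 matched the RefSeq annotation of TAIR10.1, which supplied positions, lengths and sequences. CPM used TMM library sizes (edgeR 4.0.16, R 4.3.3). TPM used the count plus 0.5 and merged exon length. BCV came from an intercept-only edgeR model on the 19940 genes kept by its filter (minimum count 10). A chi-square test of each gene's counts against library sizes, at an expected count of at least 10, used Benjamini-Hochberg adjustment at 0.05 over all 20687 genes tested. It was tested on simulated data. Copies were searched with BLAST 2.17.0. DESeq2 1.42.0 gave alternatives.

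Members are named, with the highest and lowest gene of each related list and genes marked as chosen later. The values of 1 member of the import and activation group, which counts and sums include, and the upstream window of 1 coat gene are not reported here. Members and lists were chosen with earlier results of these data known.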

Additional observations from a re-analysis of the deposited data

Results flagged for a closer look

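A gap test for a single far library, Dixon's at 95%, was applied to 69 values, and 8 had 1 library far from the other 3. Chance gives about 1 in 20 only for separate, normally distributed values. Genes with few counts and sums of flagged genes are among those tested, so the number flagged cannot be set against that rate. In 6 of them replicate 2 was the far library. OLEO1 stood at 4.75 CPM in replicate 2 and at 0 to 0.118 CPM elsewhere. OLEO2 stood at 4.05 CPM, beside 0.400 to 0.472 CPM. CLO1 stood at 0.695 CPM, beside 0 to 0.0786 CPM, and CLO2 at 0.232 CPM, beside 0 in each of the others. Their summed level with OLEO3 and OLEO4 was 19.0 TPM, beside 2.45 to 3.47 TPM. The seed and late embryo markers summed to 160 CPM, beside 5.27 to 8.12 CPM.

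Replicate 1 was the far library in the other two. Genes of glycerol use and gluconeogenesis summed to 314 CPM there, beside 347 to 352 CPM, though SDP6 of that list was highest there. The log2 TPM ratio of ACX3 to ACX4 was -1.14, beside -1.22 to -1.21.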

How the results depend on the processing

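No paired analysis was possible because the samples form 1 group. The count of members called was 18, beside 42.8% of all genes tested. It stayed between 16 and 20 under other scalings and expected-count minimums, beside 39.1% to 45.5%. When each replicate was left out it ranged from 11 to 19, beside 26.6% to 35.7%, and was lowest without replicate 2. Beside the same shares of all genes, the related genes gave 23 calls, and 22 to 25 under the same settings. They gave 9 to 23 with a replicate left out, lowest without replicate 1. Those settings were added for the related genes after the data were seen. Members with BCV above the trend numbered 11, beside 34.2% of all genes kept, and 7 with DESeq2 dispersions, beside 25%. With a replicate left out they numbered 6 to 12, beside 31.8% to 33.8%. The median log2 TPM of members past the filter was 5.43, 5.40 with longest transcripts and 5.22 over all members. CSY2 to CSY3 turned from -0.17 to 0.215 without length normalisation, and no other pair changed sign. With longest transcripts, 5 members' mean TPM moved by more than 1 SD. Calls of single members were lost in 13 cases, with 1 gained, among them SDP1 with raw library totals (adjusted chi-square p 0.148). Depth limits OLEO3, CLO1 and CLO2, which were tested only at an expected count of at least 1.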
